A study of Mus musculus with 8 samples.

Results

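The dynamins and vesicle coat genes described here are Dnm1l, Dnm2, Picalm and Sec31a, chosen by name from the deposited splicing tables with their changes known. They are 4 of the 639 genes listed in either table. All 4 genes were in the table of local splicing variations, with 6 variations and 15 junction values, and 3 of them were also in the table of junction usage, with 4 events. The study compared primary mouse hepatocytes that had lost the splicing factor SRSF3 with hepatocytes that kept it.

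The cells of both groups came from livers of C57BL/6J mice that carry floxed alleles of Srsf3, and both were cultured. The AAV-Cre group (genotype Srsf3-KO, 4 libraries) was exposed for 48 h to an adeno-associated virus (AAV) that expresses Cre recombinase, the enzyme that cuts out floxed DNA. The AAV-GFP group (genotype Srsf3-flox, 4 libraries) received a virus that expresses green fluorescent protein for the same time, so both groups were floxed, infected and cultured. The labels do not say how many mice the libraries came from. As a check of the labels, the Srsf3 junction that joins its first 2 exons had a percent spliced in (PSI, here a fraction of 0 to 1) of 0.157 in AAV-Cre and 0.998 in AAV-GFP in the authors' deposited table. Both tables hold 1 value per group or comparison and no expression levels. No SD or depth can be given, a replicate check was not possible, and hepatocyte markers could not be checked. A PSI from bulk RNA cannot tell a difference in every cell from a difference in the mix of cells, and fewer cells of a type cannot be told apart from less RNA per cell.

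Dynamins are GTPases that assemble around a membrane tube and pinch it off. Dynamin 2, encoded by Dnm2, cuts endocytic vesicles from the plasma membrane, and the dynamin-related protein encoded by Dnm1l divides mitochondria and peroxisomes. Picalm encodes a clathrin assembly protein that links membrane lipids and vesicle SNAREs to the clathrin coat. Sec31a encodes the outer shell of the COPII coat, which buds vesicles from the endoplasmic reticulum and in hepatocytes serves the export of plasma proteins and lipoproteins.

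The alternative pieces of these transcripts are shown because every value below is a share of joins to them. Sequences are those of GENCODE vM21 transcripts (mm10), printed 5′ to 3′ on the transcribed strand. Exon numbers follow the annotated transcripts Dnm1l-203, Dnm2-201, Picalm-201 and Sec31a-201. In the Dnm1l, Picalm and Sec31a exons, capitals mark the word CATC, a motif linked to SRSF3 binding, and an exon in lower case throughout does not hold it.
Dnm1l exon 15, chr16:16318764-16318841, minus strand: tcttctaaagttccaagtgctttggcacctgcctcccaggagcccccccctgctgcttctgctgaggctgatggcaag
Dnm1l exon 16, chr16:16318445-16318477, minus strand: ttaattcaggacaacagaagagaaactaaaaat
Picalm exon 13, chr7:90182219-90182368, plus strand: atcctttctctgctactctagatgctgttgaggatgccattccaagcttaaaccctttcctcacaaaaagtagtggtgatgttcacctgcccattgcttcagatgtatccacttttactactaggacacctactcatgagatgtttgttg
Picalm exon 18, chr7:90194273-90194296, plus strand: aatggcatgcattttccacaatac
Sec31a exon 22 in its short form, chr5:100373425-100373715, minus strand: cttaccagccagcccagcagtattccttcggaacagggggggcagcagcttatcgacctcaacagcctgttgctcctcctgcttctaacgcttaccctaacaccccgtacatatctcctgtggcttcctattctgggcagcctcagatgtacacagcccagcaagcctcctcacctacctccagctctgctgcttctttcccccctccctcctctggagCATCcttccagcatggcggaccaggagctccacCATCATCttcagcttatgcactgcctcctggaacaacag
Sec31a end of exon 22 found in its long form, chr5:100373380-100373424, minus strand: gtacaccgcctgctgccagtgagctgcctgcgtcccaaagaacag
Sec31a exon 23, chr5:100369596-100369634, minus strand: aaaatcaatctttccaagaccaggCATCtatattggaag

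For Dnm2 the pieces are a pair of exclusive exons in the middle of the protein and the coding ends of its alternative last exons. Capitals mark the positions at which the exclusive exons differ and, in the coding ends, the stop codon. Only the coding part of each last exon is shown.
Dnm2 first exclusive exon, chr9:21478899-21479037, plus strand: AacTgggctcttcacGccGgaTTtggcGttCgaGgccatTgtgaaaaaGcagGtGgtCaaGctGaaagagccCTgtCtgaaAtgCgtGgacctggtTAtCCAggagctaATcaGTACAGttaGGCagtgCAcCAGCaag
Dnm2 second exclusive exon, chr9:21480407-21480545, plus strand: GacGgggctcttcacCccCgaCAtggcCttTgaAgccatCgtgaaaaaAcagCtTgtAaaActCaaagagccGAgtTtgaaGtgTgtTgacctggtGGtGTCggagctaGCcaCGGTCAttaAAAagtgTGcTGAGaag
Dnm2 near coding end, chr9:21506333-21506402, plus strand: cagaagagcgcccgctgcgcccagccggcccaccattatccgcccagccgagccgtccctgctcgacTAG
Dnm2 far coding end, chr9:21507423-21507462, plus strand: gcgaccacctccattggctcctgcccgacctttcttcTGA

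Dnm2 had the largest difference of the 4 genes, with more joins to its far last exon in AAV-Cre. The variation consists of the junctions that leave exon 20, a coding exon at chr9:21505464-21505715. The junction to the far last exon, which starts at position 21507423, had a PSI of 0.670 in AAV-Cre and 0.102 in AAV-GFP in the authors' deposited table. The junction to the near last exon at 21506333 had 0.239 in AAV-Cre and 0.636 in AAV-GFP in the authors' deposited table. A second acceptor site of that exon lies 3 nt downstream, at 21506336, and had 0.088 in AAV-Cre and 0.266 in AAV-GFP in the authors' deposited table. The far exon thus held most of the joins in AAV-Cre and the near exon most of those in AAV-GFP.

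The authors' deposited expected changes, AAV-Cre minus AAV-GFP, were 0.586 for the far exon, -0.401 for the first near site and -0.076 for the second. Within the near exon the balance between its sites was close in the groups. From the PSI values of the authors' deposited table, the site at 21506333 took a share of 0.731 of the pair in AAV-Cre and 0.705 in AAV-GFP, while the pair summed to 0.327 in AAV-Cre and 0.902 in AAV-GFP. Whether the shares of the pair differ beyond replicate error cannot be said without values per library.

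The far and the near last exon encode different ends of the proline-rich domain, the part of dynamin that binds SH3 proteins. Before its stop codon, TGA, the far exon has 37 coding nt. The near exon has 67 nt from the first site and 64 nt from the second before its stop codon, TAG. All begin with the last base of a codon started in exon 20, so the far end is 10 codons shorter than the near one, and the 3-nt pair differs by 1 codon. The far junction is annotated in the coding transcripts Dnm2-204 and Dnm2-212, and the first near junction in Dnm2-201, Dnm2-202, Dnm2-203 and Dnm2-206.

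A second event of Dnm2 lay upstream, at the pair of mutually exclusive exons after exon 9. Both exons are 139 nt, lie in the middle region through which dynamins assemble, and are identical at 95 of 139 positions (68.3%). The authors' deposited table made with JUM gave a change of -0.298 for the first exon and 0.298 for the second. Its q-value was 0.387, so the difference did not pass the q of 0.05 used here. The table appears to give changes in the order of the coordinates: in 32 of 32 events of the sections for splice sites and exclusive exons that could be matched to junctions of the other table, the signs were the same in that order. Only 2 of the 32 were exclusive exon events, and splice site events were matched only at a change of at least 0.1 in size. The direction for the exons of Dnm2 thus rests on few events of its own kind. Both annotated coding transcripts with the far last exon carry the first exclusive exon. The values here are higher for the far last exon and lower for the first exclusive exon in AAV-Cre, and short reads in these tables do not show which exon and which end were on the same molecule.

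Dnm1l differed in the exons of its variable domain, the loop between the middle and GTPase effector regions. The variation consists of the junctions that leave exon 14 (chr16:16319452-16319508). The junction to the exon of 33 nt had a PSI of 0.898 in AAV-Cre and 0.566 in AAV-GFP in the authors' deposited table. The junction to the exon of 78 nt had 0.038 in AAV-Cre and 0.225 in AAV-GFP in the authors' deposited table. The junction that passes both exons and joins exon 17 had 0.064 in AAV-Cre and 0.209 in AAV-GFP in the authors' deposited table. In AAV-GFP the 3 junctions were all in use, while in AAV-Cre the 33-nt exon took nearly all joins that leave exon 14 and both other junctions were lower. Joins from the 78-nt exon to the 33-nt exon are not counted in this variation, and the annotated transcript Dnm1l-203 holds both exons. The values thus do not give the full inclusion of the 33-nt exon in either group.

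The deposited expected changes in the authors' deposited table were 0.33 for the 33-nt exon, -0.107 for the 78-nt exon and -0.032 for the junction past both. These differ from the plain differences of the group PSI values, which were 0.332, -0.187 and -0.145, so the size at the 2 minor junctions depended on the measure. The joins of exon 14 to the 33-nt exon outnumbered its joins to the 78-nt exon 23.6 times in AAV-Cre and 2.5 times in AAV-GFP, from the PSI values of the authors' deposited table. The exons encode 11 and 26 codons and keep the frame. The join from exon 14 to the 33-nt exon is annotated in Dnm1l-204 and Dnm1l-207, the join to the 78-nt exon in Dnm1l-203, which holds both, and the join past both in Dnm1l-201 and Dnm1l-202.

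The same stretch of Dnm1l was a composite event in the authors' deposited table made with JUM, with q = 0.569, which did not pass. It had 3 finite changes, -0.132, 0.233 and -0.101, in the authors' deposited table, and 4 further values that were infinite. The table does not pair the values of a composite event with junctions, so they give no direction for either exon.

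Picalm had lower inclusion of 2 separate cassette exons in AAV-Cre. Exon 13, of 150 nt, lies in the part of the protein after the lipid-binding domain. It joined exon 14 at a PSI of 0.194 in AAV-Cre and 0.506 in AAV-GFP in the authors' deposited table. Skipping it, by a join of exon 12 to exon 14, had 0.806 in AAV-Cre and 0.494 in AAV-GFP in the authors' deposited table. Skipping and inclusion were thus about equal in AAV-GFP, and skipping was the main form in AAV-Cre. The deposited expected change of inclusion in the authors' deposited table was -0.319.

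Exon 18 of Picalm, of 24 nt, was measured from both of its sides. Leaving exon 17, the junction to it had a PSI of 0.490 in AAV-Cre and 0.729 in AAV-GFP in the authors' deposited table. Entering exon 19, the junction from it had 0.434 in AAV-Cre and 0.687 in AAV-GFP in the authors' deposited table. Skipping it, by a join of exon 17 to exon 19, had 0.510 in AAV-Cre and 0.271 in AAV-GFP on the leaving side, and 0.564 in AAV-Cre and 0.288 in AAV-GFP on the entering side, in the authors' deposited table. Both sides rest on the same libraries and gave inclusion values within 0.1 of each other in each group, with lower inclusion in AAV-Cre.

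The intron part listed before exon 19 of Picalm had a PSI of 0.002 in AAV-Cre and 0.025 in AAV-GFP in the authors' deposited table. The expected change there was -4.1e-06 in the authors' deposited table, so retention of this intron was near 0 in both groups. Deposited expected changes for inclusion of exon 18 were -0.233 from exon 17 and -0.25 into exon 19 in the authors' deposited table. The exons encode 50 and 8 codons, and the annotation has coding transcripts with both (Picalm-201, Picalm-206), with exon 13 alone (Picalm-202, Picalm-213), with exon 18 alone (Picalm-212, Picalm-215) and with neither (Picalm-205, Picalm-209). The tables do not join the 2 exons on 1 molecule. Picalm was in no section of the authors' deposited table made with JUM, which lists events at p below 0.05.

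Sec31a had a skipping junction that was hardly used in AAV-GFP. The variation holds the junctions that leave exon 21 (chr5:100375208-100375331). The junction to exon 22 had a PSI of 0.592 in AAV-Cre and 0.989 in AAV-GFP in the authors' deposited table. The junction to exon 24, which passes exons 22 and 23, had 0.408 in AAV-Cre and 0.011 in AAV-GFP in the authors' deposited table. The deposited expected change was 0.388 for the skipping junction in the authors' deposited table.

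Exon 22 is annotated in a form of 336 nt (112 codons) and in one of 291 nt (97 codons), which lacks the last 45 nt, and exon 23 has 39 nt (13 codons). Skipping the long exon 22 with exon 23 removes 375 nt, or 125 codons, and keeps the frame. The skipping junction is annotated in the coding transcript Sec31a-208 and in Sec31a-206, a transcript with a retained intron. The variation starts at exon 21 and so does not show how often exon 23 or either form of exon 22 was used.

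By junction usage the authors' deposited table listed the same stretch of Sec31a, from exon 21 over both forms of exon 22 to exon 24, as a composite event (q = 0.371). It also listed a choice from exon 12 to exon 13 or to exon 15 (q = 0.47), in the authors' deposited table. Exons 13 and 14, which the second choice passes, have 39 and 78 nt. Every change of these 2 events in the authors' deposited table was infinite, as in 63 of its 498 events, so a direction cannot be read from them. Neither event passed the q of 0.05 used here.

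**Figure D1:**
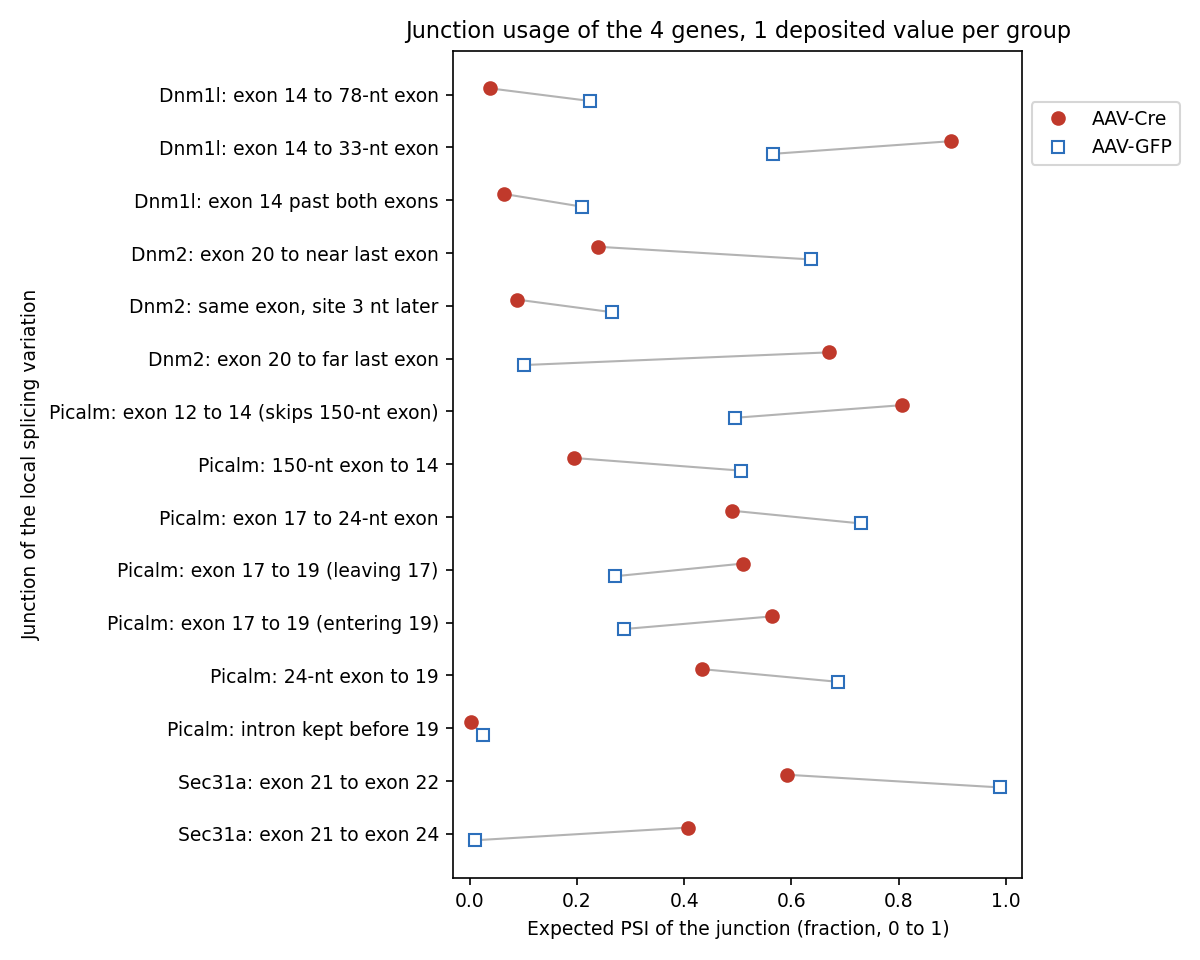
Expected PSI (x axis, fraction) of each of the 15 listed junction values of the 4 genes (y axis) in AAV-Cre (filled circles) and AAV-GFP (open squares), 1 deposited value per group with no error available. The far last exon of Dnm2 is at 0.670 in AAV-Cre and 0.102 in AAV-GFP, and the skipping junction of Sec31a at 0.408 in AAV-Cre and 0.011 in AAV-GFP.

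**Figure D2:**
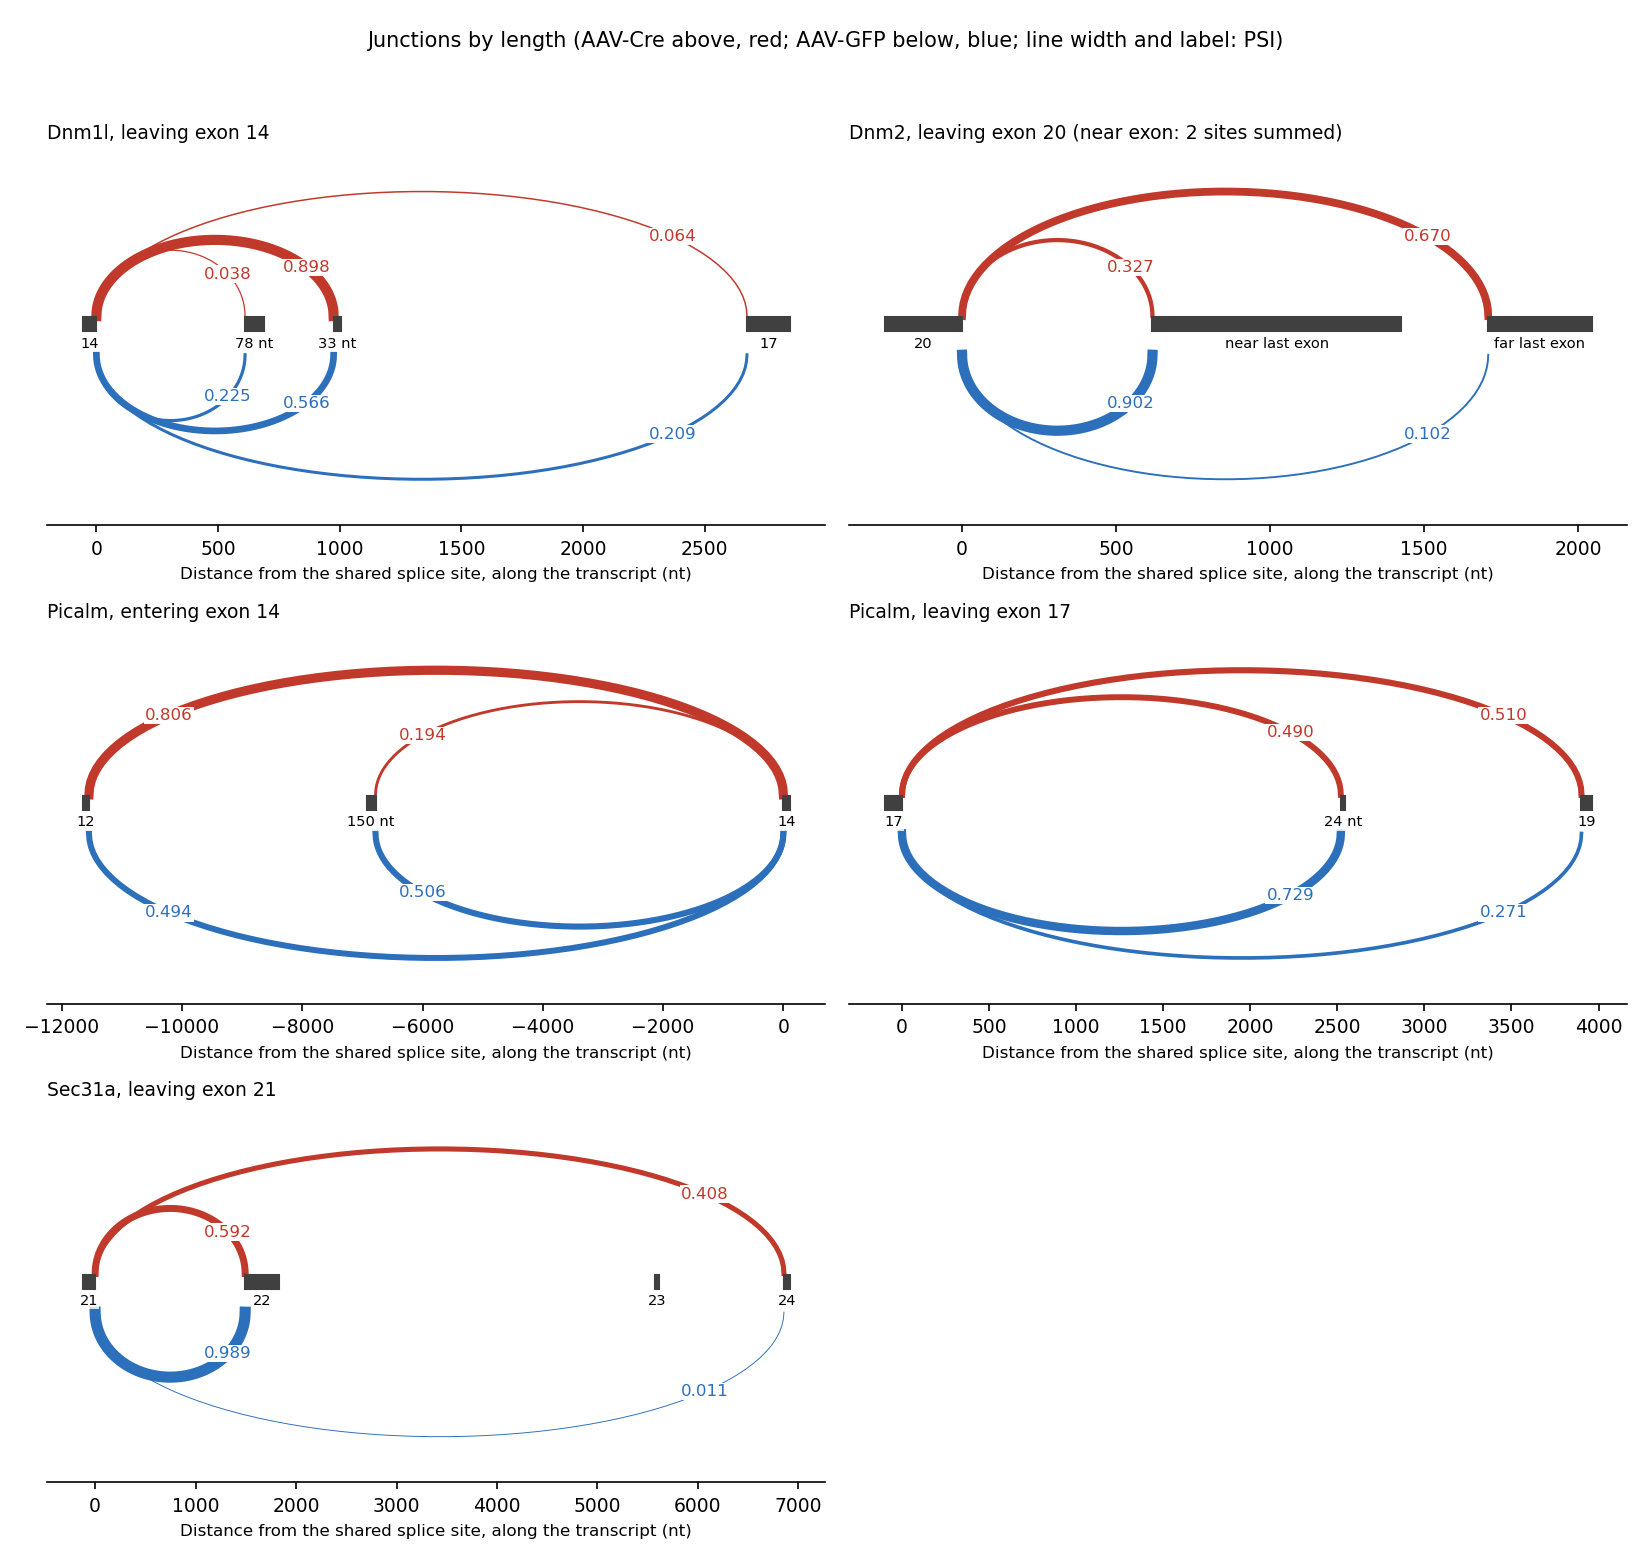
Exons (boxes) and junctions (arcs) by distance from the shared splice site in nt (x axis), with AAV-Cre arcs above and AAV-GFP arcs below, where line width and label give the PSI and arc height only follows junction length. In Dnm1l the arc to the 33-nt exon carries 0.898 in AAV-Cre and 0.566 in AAV-GFP, and in Dnm2 the 2 sites of the near last exon are summed to 0.327 in AAV-Cre and 0.902 in AAV-GFP.

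Across the 4 genes, 6 of 6 variations had a junction whose deposited expected change was at least 0.2 in size, in the authors' deposited table. Of all 862 variations listed, 95.2% did, so the count says nothing particular about these genes. At the level of junctions, 11 of the 15 listed values had an expected change of at least 0.2 in size, 6 of them higher and 5 lower in AAV-Cre, beside 22.3% of all 6866 listed junctions, with 11.1% higher and 11.2% lower. These shares are not on variations of like size. The 6 variations of these genes hold 15 values, 11 of them changed, and the 862 listed variations hold 6866, with 1531 changed. The variations of these genes thus hold fewer junctions each on average, and the shares show no enrichment. The 15 include the join of exon 17 to exon 19 of Picalm 2 times, once in each of its variations, and 1 intron part. Of the 13 distinct splice junctions, 10 had a change of that size, 5 higher and 5 lower in AAV-Cre. The genes were chosen for these changes, and the junctions of a variation share 1 total, so a higher value at one goes with lower values at the others. The largest change per gene was 0.586 for Dnm2, 0.388 for Sec31a, 0.33 for Dnm1l and 0.319 for Picalm, beside a median of 0.31 over the 354 genes of the authors' deposited table. Dnm2 was number 35 of the 354 by this measure, Sec31a number 103, Dnm1l number 156 and Picalm number 168.

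**Figure D3:**
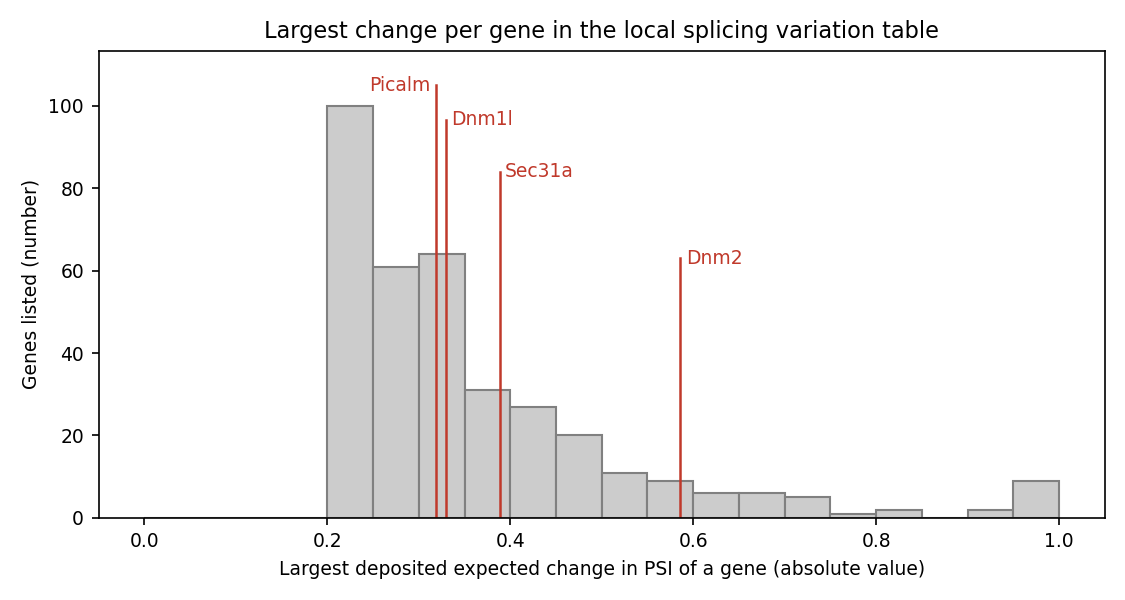
Number of genes (y axis) by the largest deposited expected change in PSI, absolute value (x axis), for the 354 genes with a local splicing variation, with the 4 genes as red lines. Dnm2 at 0.586 lies in the upper tail, while Picalm at 0.319 and Dnm1l at 0.33 lie near the median of 0.31.

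By junction usage 0 of the 4 events of these genes passed a q of 0.05 with a change of at least 0.1 in the authors' deposited table made with JUM, beside 11.4% of its 498 events. All 4 events were listed there at an unadjusted p below 0.05, as that table lists only such events. In the table made with MAJIQ 6 of 6 variations passed the 0.2 used here, beside 95.2% of all 862. Neither count says anything particular about these genes. The 2 tables come from the same libraries, so neither is a replicate of the other.

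The alternative pieces share some features that the choice of genes did not use. The 6 cassette exons of Dnm1l, Picalm and Sec31a, with exon 22 in its long form, all have lengths divisible by 3. Of the 165262 distinct internal coding exons of GENCODE vM21, 41.1% do. That share covers all such exons, alternative or not, and was not computed for alternative exons alone. In Sec31a the skipping junction passes both of its exons together, so these are not separate cases. The count thus shows no trait particular to these exons. The exclusive exons of Dnm2 are not divisible by 3 but have equal length, so exchange between them keeps the frame. All pieces are coding, and none overlaps another annotated gene on either strand.

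The word CATC was searched on the transcribed strand, since SRSF3 binds RNA. It occurred in none of the Dnm1l and Picalm exons, 3 times in exon 22 of Sec31a and 1 time in its exon 23. Among internal coding exons of the same length, chromosome 18 left out, CATC is held by 31.3% at 78 nt, 9.44% at 33 nt, 55% at 150 nt, 9.63% at 24 nt, 88.2% at 336 nt and 17.8% at 39 nt. In Dnm2 the first exclusive exon held 0 and the second held 1, where 55.5% of exons of 139 nt hold the word. The near and far last exons of Dnm2 were not searched. A match describes the letters only and is no evidence of binding.

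The 2 measures of change in the first table can differ in size. The deposited expected change and the plain difference of group PSI were within 1.5 times of each other at 11 of the 15 listed values and had the same sign at all 15. The other 4 are the 2 minor junctions of Dnm1l, the second near site of Dnm2 (-0.076 against -0.178) and the intron part of Picalm. At each of these 4 the expected change of the authors' deposited table was the smaller in size.

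**Figure D4:**
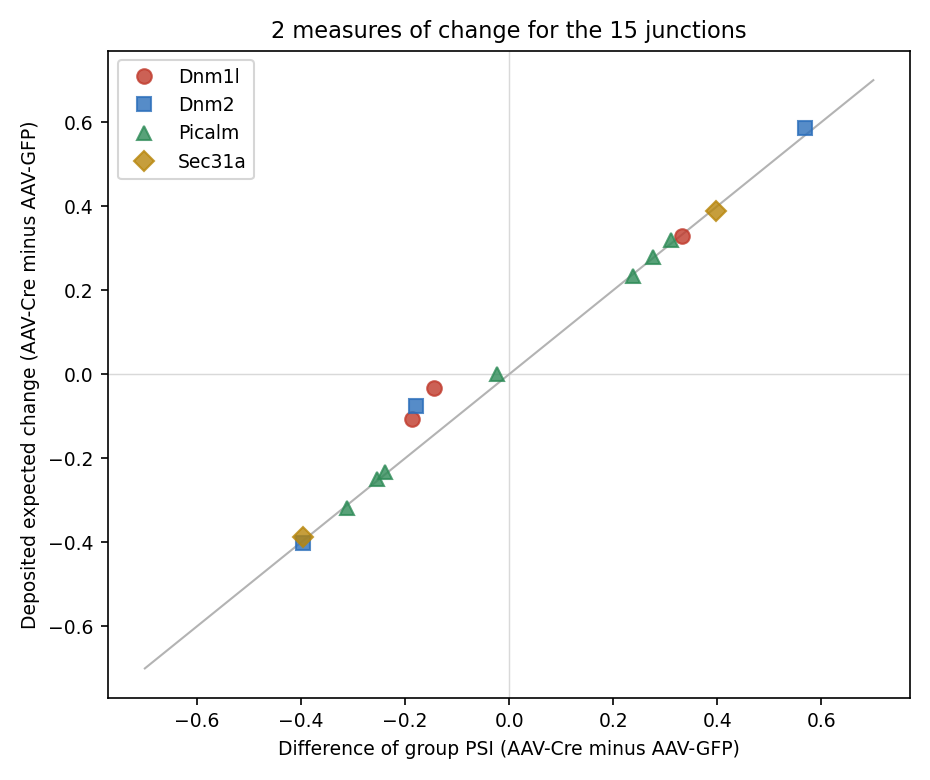
Deposited expected change (y axis) against the difference of group PSI (x axis), both AAV-Cre minus AAV-GFP, for the 15 listed junction values of the 4 genes, with the line of equality. Points off the line include the junction of Dnm1l past both exons at -0.145 on the x axis and -0.032 on the y axis.

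Other genes of membrane fission and coats were counted from 3 lists: the dynamin family with mitochondrial fission or fusion, the clathrin coat with endocytosis, and the COPI and COPII coats with traffic from the endoplasmic reticulum to the Golgi. Of their 109 genes other than the 4, 10 were listed in either table and 5 passed either threshold (Cttn, Bin1, Pacsin2, Mia3 and Necap1), beside 58.1% of the 639 listed genes. By list, 1 of the 2 listed fission and fusion genes passed, 3 of the 6 listed clathrin and endocytosis genes, and 1 of the 2 listed coat and Golgi traffic genes. The whole lists hold 16, 48 and 45 genes other than the 4, and most of these were in neither table.

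Among genes that work beside dynamin 2, Cttn, an actin-binding protein that binds the proline-rich domain of dynamin, had an exon of 111 nt joined at 0.208 in AAV-Cre and 0.891 in AAV-GFP in the authors' deposited table. The same exon of Cttn had a change of -0.489 and a q-value of 0.344 in the authors' deposited table made with JUM, which did not pass. Bin1, a membrane-bending BAR protein that also binds dynamin, joined an exon of 72 nt at 0.10 in AAV-Cre and 0.563 in AAV-GFP, and the exon past it at 0.868 in AAV-Cre and 0.420 in AAV-GFP, in the authors' deposited table. Seen from the exon downstream, the join from the 72-nt exon of Bin1 had 0.025 in AAV-Cre and 0.235 in AAV-GFP, with an expected change of -0.174, below 0.2 in size, in the authors' deposited table. The Bin1 event of the authors' deposited table made with JUM had no finite change (q = 0.371) and did not pass. By local variations both cofactors had lower values in AAV-Cre for joins to these exons. Pacsin2, another BAR protein that binds dynamin, used its most distant upstream exon at 0.740 in AAV-Cre and 0.284 in AAV-GFP in the authors' deposited table.

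Among coat genes, Necap1, a partner of the endocytic adaptor AP2, had an exon of 82 nt with a change of -0.156 in the authors' deposited table made with JUM (q = 0.00444), as the only gene of the lists that passed there. Numb, an endocytic adaptor, had an exon of 33 nt with a change of -0.742, a value of the authors' deposited table that did not pass (q = 0.176). Ap2a2, a subunit of AP2, had a pair of acceptor sites with changes up to 0.365 (q = 0.443), and Opa1, the dynamin-related GTPase of inner mitochondrial membrane fusion, an exon of 54 nt with 0.369 (q = 0.342), both in the authors' deposited table and neither passing. Which junction the sign of a cassette exon event belongs to was not checked. No direction is thus drawn from such events for the exons of Cttn, Necap1, Numb and Opa1. Cltc, the clathrin heavy chain (q = 0.436), and Arf1, the GTPase that recruits COPI (q = 0.343), had changes of at most 0.027 in size in the authors' deposited table. Mia3, which loads bulky cargo into COPII vesicles, joined the exon at chr1:183345186-183345296 at 0.614 in AAV-Cre and 0.082 in AAV-GFP in the authors' deposited table.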

How the data were processed

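The labels' protocols describe stranded mRNA libraries, 4 of AAV-Cre and 4 of AAV-GFP hepatocytes, read as paired ends. A run name inside a deposited table gives 100 cycles and the labels 150, which is not resolved. FastQC, STAR and the build mm10 are named in the submitters' processing notes, without versions. The first deposited table has the column layout of MAJIQ's VOILA, per the file headers. Its PSI values are the authors' expected fractions, 1 per junction for each group, beside the expected change. The sign of that change was reversed to give AAV-Cre minus AAV-GFP, since it then had the sign of the group difference at 2605 of 2605 junctions whose PSI differed by at least 0.05. Its column headed as a probability of change was used only as an alternative filter, because its values do not behave as the header says. JUM made the other deposited table, which gives p-values, q-values and changes in PSI, per the file headers. The settings of both tools were not given in the sources used here.

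The rule took every row whose gene name is Dnm1l, Dnm2, Picalm or Sec31a. Variations were counted as changed at an expected change of at least 0.2, and events at q of 0.05 or less with a change of at least 0.1. No test was run, since neither table holds values per library and the depth is unknown; counts stand beside those over all listed items. Every value of the 4 genes was described, with every listed gene of the 3 lists and Srsf3. The genes and lists were chosen with earlier results of these data known. Exons, transcripts and sequences came from GENCODE vM21; protein sequences were not used here. Reading, signs and thresholds were tested on simulated data. Computation used Python 3.11.15, numpy 2.4.6 and matplotlib 3.10.9.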

Additional observations from a re-analysis of the deposited data

How the results depend on the processing

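All 6 variations of the 4 genes had a change past 0.2, and so also past 0.1. Counting only distinct sets of junctions also gave 6, but could not give fewer, since the sets all differ. Counting only junctions at 0.95 or more in the probability column gave 6 as well. That column held 1 at every listed value of the 4 genes, even the intron part of Picalm, except the far junction of Dnm2. The far junction, with a change of 0.586, had 0.568 there and was left out. Dnm2 still counted by its first near site, at -0.401. These settings thus do not test the count. At 0.3 the count was 4, without both variations at exon 18 of Picalm. The plain difference of group PSI left 11 listed values past 0.2. By junction usage 0 events passed at a q of 0.1 or with a change of at least 0.2. At the authors' p threshold, which all events of that table meet, with a change of at least 0.1 there were 2, those of Dnm1l and Dnm2. Shares over all listed variations, junctions and events were not computed at these other settings. The counts thus say nothing particular about the 4 genes. Among the genes of the lists, 5 passed at 0.3 as at 0.2, 4 by local variations alone and 1 by junction usage alone. The cause of these differences was not tested.

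No paired analysis was possible because the deposited tables hold no value per library, and for the same reason leaving out single replicates was not run. Depth is unknown, so no limit of detection can be given.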
